A study of Mus musculus with 45 samples.

Results

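Array comparative genomic hybridization (CGH) measures, probe by probe, how much DNA a tumor carries relative to a reference, and it was applied here to 45 mammary tumors of 8 genetically engineered mouse (GEM) models. The genes described are Met, Cav1, Cav2, St7, Tes, Capza2 and Wnt2, 7 neighbours on mouse chromosome 6, out of 19817 autosomal genes with a value on every array. They are covered by 13 of 42235 probes, with 1 probe for Cav2 and 2 for each of the others. A window of 16.5 to 18.5 Mb of chromosome 6 (mm8), with 34 probes and 15 named genes, was used to place the borders. The genes were chosen by their gain in all p53-/- tumors, so their values in that model are a description and carry no test.

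The p53-/- group held 6 tumors that the labels give as p53fl/fl ;MMTV-cre transplants. In this model Cre recombinase, driven by the mouse mammary tumor virus (MMTV) promoter, removes the floxed p53 gene in mammary epithelium. The BRCA1-/-;p53+/- group held 5 tumors of the genotype BRCA1fl/fl;p53+/-;MMTV-cre. The C3(1)-Tag group held 5 tumors that express the SV40 T/t antigens from the C3(1) promoter. The MMTV promoter drove the transgene in the remaining groups, MMTV-Her2/neu, MMTV-HRas, MMTV-Myc and MMTV-Wnt1 with 5 tumors each and MMTV-PyMT with 9. All tumors were primary invasive tumors of female mice, each hybridized on 1 array, and the ages and strains of the mice were not given in the labels. The reference is labelled as pooled spleen DNA, although its characteristics also name normal mammary tissue.

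MET is the receptor tyrosine kinase for hepatocyte growth factor (HGF), and its activation drives epithelial cells to scatter, migrate and divide. Amplification, the repeated copying of a short chromosomal stretch, is a known route to excess MET in carcinomas, and it carries the neighbouring genes along. Among these neighbours, caveolin 1 and caveolin 2, the products of Cav1 and Cav2, build the membrane pits called caveolae. Tes encodes testin, a LIM domain protein of focal adhesions, and Capza2 encodes an alpha subunit of the protein that caps actin filaments. Wnt2 encodes a secreted Wnt ligand. St7 was named suppressor of tumorigenicity 7 from earlier work on human tumors.

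The promoters of Met and Cav1 are shown because these genes give the amplicon its name and, as described below, 1 tumor separated them. Each stretch runs from 250 bases before to 50 after the start of transcription, as given by RefSeq for GRCm38.p6, and capitals mark the GC box GGGCGG or its reverse complement CCGCCC. Met lies at chr6:17463707-17464006 on the plus strand and Cav1 at chr6:17306085-17306384 on the plus strand in that build, whose positions are not those of the array.
Met: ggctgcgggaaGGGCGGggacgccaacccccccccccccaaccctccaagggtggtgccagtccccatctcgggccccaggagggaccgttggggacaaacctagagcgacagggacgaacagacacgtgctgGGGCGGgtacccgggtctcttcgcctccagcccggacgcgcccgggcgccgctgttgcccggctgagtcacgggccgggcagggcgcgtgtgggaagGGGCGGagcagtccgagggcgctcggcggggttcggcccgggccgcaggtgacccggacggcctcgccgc
Cav1: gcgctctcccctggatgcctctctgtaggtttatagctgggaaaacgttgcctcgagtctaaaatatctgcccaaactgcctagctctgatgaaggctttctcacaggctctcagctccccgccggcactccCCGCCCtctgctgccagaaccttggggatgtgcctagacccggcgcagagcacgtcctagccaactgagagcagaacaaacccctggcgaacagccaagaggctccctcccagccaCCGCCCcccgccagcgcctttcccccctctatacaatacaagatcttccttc
The Met promoter held 3 GC boxes and the Cav1 promoter 2. For each of the 7 genes the promoter nearest the gene start was scanned, 3 being listed for St7, 2 for Cav1 and 1 for the others. At least 1 box was found on either strand in 6 of these 7 promoters (all but that of St7). The same held for 35.7% of 32851 mouse promoters of the same length. The GC content of the 7 promoters lay between 58.7% and 75.7%, against a median of 52.7% over all promoters. No measurement of the arrays bears on these boxes.

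Values are log2 ratios of Cy3 over Cy5, centred on the median of each array's autosomal probes, so that 0 stands for that median and 1 for a doubled ratio. This direction is opposite to the labels, which assign Cy5 to the tumor. It was taken from the deposited interval table, in which 740 of 755 filtered intervals (98.0%) had the sign of Cy3 over Cy5, and it was chosen after the values were seen. The spread of single probes (SD) ranged from 0.158 to 0.476 over the arrays. Of the probes for the targeted genes, 1 of 2 Brca1 probes lay between -5.14 and -1.69 in the BRCA1-/-;p53+/- tumors. The 2 Trp53 probes ranged from -0.64 to 0.58 and from -0.53 to 0.02 in the p53-/- tumors, and whether they lie in the deleted part was not given in the sources used here. The Wnt1 probe read 0.07 in the tumor labelled Wnt_4635 and at least 1.07 in the other 4 MMTV-Wnt1 tumors. The probes of the other transgenes' genes showed no common gain in their models, with medians of 0.08 and -0.15 for Erbb2, -0.04 for Hras1 and 0.25 for Myc (range -0.52 to 1.00). Results given with and without Wnt_4635 are the tumor counts, the members whole at high level, the values of MMTV-Wnt1, the F test and the BRCA1-/-;p53+/- contrast. Others that include it, among them the focal tests of the other models and the results flagged at the end, are given only with it. The arrays P53_2979 and P53_5809, on different slides, had the largest probe spreads of the p53-/- group (0.449 and 0.476) and correlated at r = 0.88 across autosomal probes, as did PyMT_11567 and PyMT_11570, these being the first and the second of 990 pairs. Over 1 Mb bins both pairs were lower, at 0.72 and 0.71, and the 2 highest pairs joined tumors of different models. C3TAg_5RPT and H2N53 correlated at 0.96 and C3TAg_7RPT and H2N61 at 0.93 (0.52 for both over probes). Whether the arrays of any of these pairs hold separate tumors was not tested. The C3(1)-Tag and MMTV-Her2/neu groups may thus hold fewer than 5 tumors of their own. The limma calls of members and list genes that change without the 4 arrays, and the Met means of these groups, are given both ways. Most other results, among them the counts of gained tumors and the comparisons within slides, are given only with the 4 arrays. The array Myc_04004021 ran against PyMT_11567 (r = -0.40) and PyMT_11570 (r = -0.39) across autosomal probes, and its median over the 13 probes was 0.17, or -0.17 with the sign turned.

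The p53-/- tumors fell into 2 sets that the gain shared by all 6 does not show. The tumors P53_1573, P53_5817, P53_5851 and P53_8546 carried a focal amplification of very high ratio. The tumors P53_2979 and P53_5809 held the 7 genes in a shallow gain of 59.3 and 60.0 Mb, with no high-level segment in the window. On chromosome 6 their only segment at high level, of 5 probes at chr6:63554536-64669953, followed the end of that gain (means 1.66 and 1.97). The median log2 ratio of the 13 probes was 4.51, 5.51, 4.95 and 4.98 in the first 4, which are ratios of 22.7, 45.7, 30.9 and 31.6. It was 0.29 in P53_2979 and 0.17 in P53_5809. The 2 slides that held this model each carried 2 tumors of the first set and 1 of the second, so the sets did not follow the slide. In bulk DNA, more copies per cell and more cells that carry the copies cannot be told apart.

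Met, the receptor, had a log2 ratio of 4.57 in P53_1573, 5.47 in P53_5817, 5.04 in P53_5851 and 5.10 in P53_8546. It was 0.0043 in P53_2979 and 0.04 in P53_5809, and the mean over the model was 3.37 ± 2.61 (SD, n = 6). The 4 amplified tumors lay above every tumor of the other models except Brca_14, while P53_2979 and P53_5809 lay within the range of the tumors without a high-level segment, whose highest Met value was 0.77. The SD of the model is thus the distance between 2 sets of tumors and not a spread around 1 level.

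The caveolin genes followed Met in 3 of the 4 amplified tumors. Cav1 had a log2 ratio of 5.45 in P53_5817, 4.94 in P53_5851 and 5.13 in P53_8546. In P53_1573 it was 0.56, close to the 0.49 of P53_2979 and the 0.46 of P53_5809. Cav2, with its single probe, gave the same split, at 5.53, 4.50 and 5.08 in the tumors that amplified it and at 0.40, 0.37 and 0.43 in P53_1573, P53_2979 and P53_5809. P53_1573 therefore had Met at 4.57 with both caveolin genes below 0.6.

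The genes of the cytoskeleton parted from each other. Capza2, next to Met, read 4.61 in P53_1573, 5.34 in P53_5817, 5.07 in P53_5851 and 4.16 in P53_8546, and 0.23 and 0.15 in P53_2979 and P53_5809. Tes, at the other end of the stretch, was at 5.49 in P53_5817 and 3.46 in P53_5851. Its log2 ratio was 0.51 in P53_1573, 0.59 in P53_8546, 0.40 in P53_2979 and 0.28 in P53_5809. Tes had the lowest mean of the 7 genes in the model, 1.79 ± 2.18 (SD, n = 6).

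St7 and Wnt2 were amplified in the same 4 tumors as Met. St7 read 4.93, 5.87, 5.20 and 5.42 in P53_1573, P53_5817, P53_5851 and P53_8546, and the Wnt ligand gene Wnt2 read 4.38, 5.48, 4.80 and 4.97 in the same order. In P53_2979 and P53_5809 the gene values were 0.93 and 0.71 for St7 and 0.54 and 0.70 for Wnt2. These values came from 1 of the 2 probes of each gene. The St7 probe at 17778235 read 1.57 and 1.33 in the 2 tumors while the probe at 17882329 read 0.28 and 0.09, and the Wnt2 probe at 17947748 read 1.07 and 1.49 while the probe at 17958615 read 0.01 and -0.10. The Wnt2 probe at 17947748 was the only member probe not well above background in both channels on every array, failing on 3 arrays, none of them p53-/-.

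**Figure D1:**
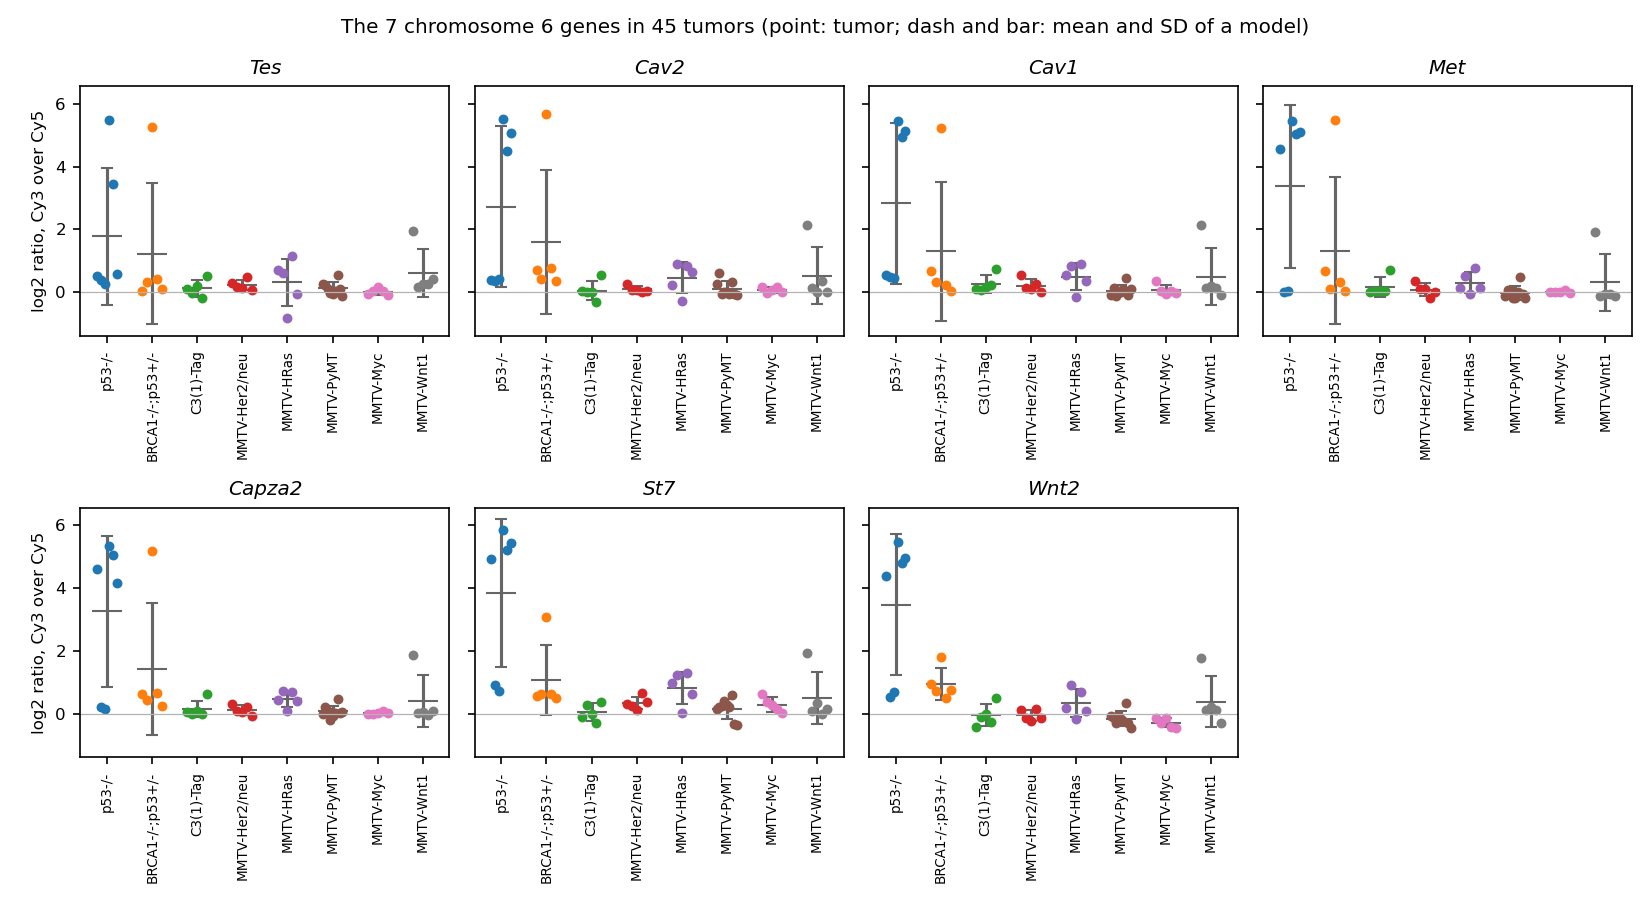
Log2 ratio (y axis, Cy3 over Cy5) of each of the 7 genes in each of 45 tumors (points) by GEM model (x axis), with the mean (dash) and SD (bar) of each model. In p53-/- the Met points split into 4 between 4.57 and 5.47 and 2 near 0, and Brca_14 is the lone high point of BRCA1-/-;p53+/-.

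A tumor was counted as gained when at least 50% of the 13 probes lay in segments with a mean of at least 0.2, and as high level when the segment over Met had a mean of at least 1. The second threshold was set after the values were seen, and no tumor had a segment over Met between 0.77 and 1.90. Because high level is defined on Met, Met is inside the amplified run of every such tumor by construction. In p53-/-, 6 of 6 tumors were gained, as the choice of the genes required, and 4 of 6 were at high level. In the other 7 models, 13 of 39 tumors were gained (33.3%, exact Clopper-Pearson 95% interval 19.1% to 50.2%) and 2 of 39 were at high level (5.13%, 0.627% to 17.3%), namely Brca_14 and Wnt_4635. Without Wnt_4635 these counts were 12 and 1 of 38. Outside these 6 tumors no high-level segment fell in the window.

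The borders of the amplified run differed among the 6 tumors. In P53_8546 the run was the shortest, 0.784 Mb at chr6:17237755-18022093 (mm8), with 16 probes and a mean of 4.88. It began at the Cav2 probe (5.08), 144 kb after a probe of B930018B01 at 0.29, and it ended inside Asz1, where neighbouring probes 24.8 kb apart read 4.16 and 0.11. Tes lay outside it, in a segment with a mean of 0.60. The same tumor had 3 further segments of like level on chromosome 6, at chr6:36375629-36988755 (mean 4.44), chr6:50032007-50210558 (4.95) and chr6:53522330-53794696 (4.78).

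In P53_1573 the run extended 3.95 Mb, chr6:17442331-21393403, and began at the first Met probe. The last probe before it, in BC067060, read 0.65, and the Met probe 138 kb further on read 4.51, so the border fell between Cav1 and Met. Tes, Cav2 and Cav1 lay in a segment with a mean of 0.50. Within the run the mean was 4.56 up to 18803633 and 3.39 beyond it, and the same tumor had a separate segment at chr6:22956507-25797893 with a mean of 2.03.

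The runs of P53_5817 and P53_5851 held all 7 genes. The run of P53_5817 was chr6:15327864-18829387 (3.50 Mb), a single segment with a mean of 5.40, and all 13 member probes lay between 5.29 and 6.10. The run of P53_5851 was chr6:16724617-21715018 (4.99 Mb) and rose and fell in steps, with means of 3.59 over Tes, 4.86 over Cav2 to Wnt2 and 4.02 beyond. The array had no probe between 18829387 and 21067494 or between 15787507 and 16724617, so the borders that fall there are known only to within those gaps.

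Brca_14, of the BRCA1-/-;p53+/- model, had a run at chr6:15327864-17778294 (2.45 Mb, 25 probes) with a mean of 5.36, as high as in the p53-/- tumors. Its right border fell between the 2 St7 probes, at 4.83 and 1.34, and Wnt2 lay outside it. It began at the same Foxp2 probe as in P53_5817 and Wnt_4635, the next probe to the left being 293 kb away. Wnt_4635 carried the run of P53_5817 in probe coordinates, chr6:15327864-18829387, at a lower level, with means of 1.07, 1.90 and 1.22 along it.

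**Figure D2:**
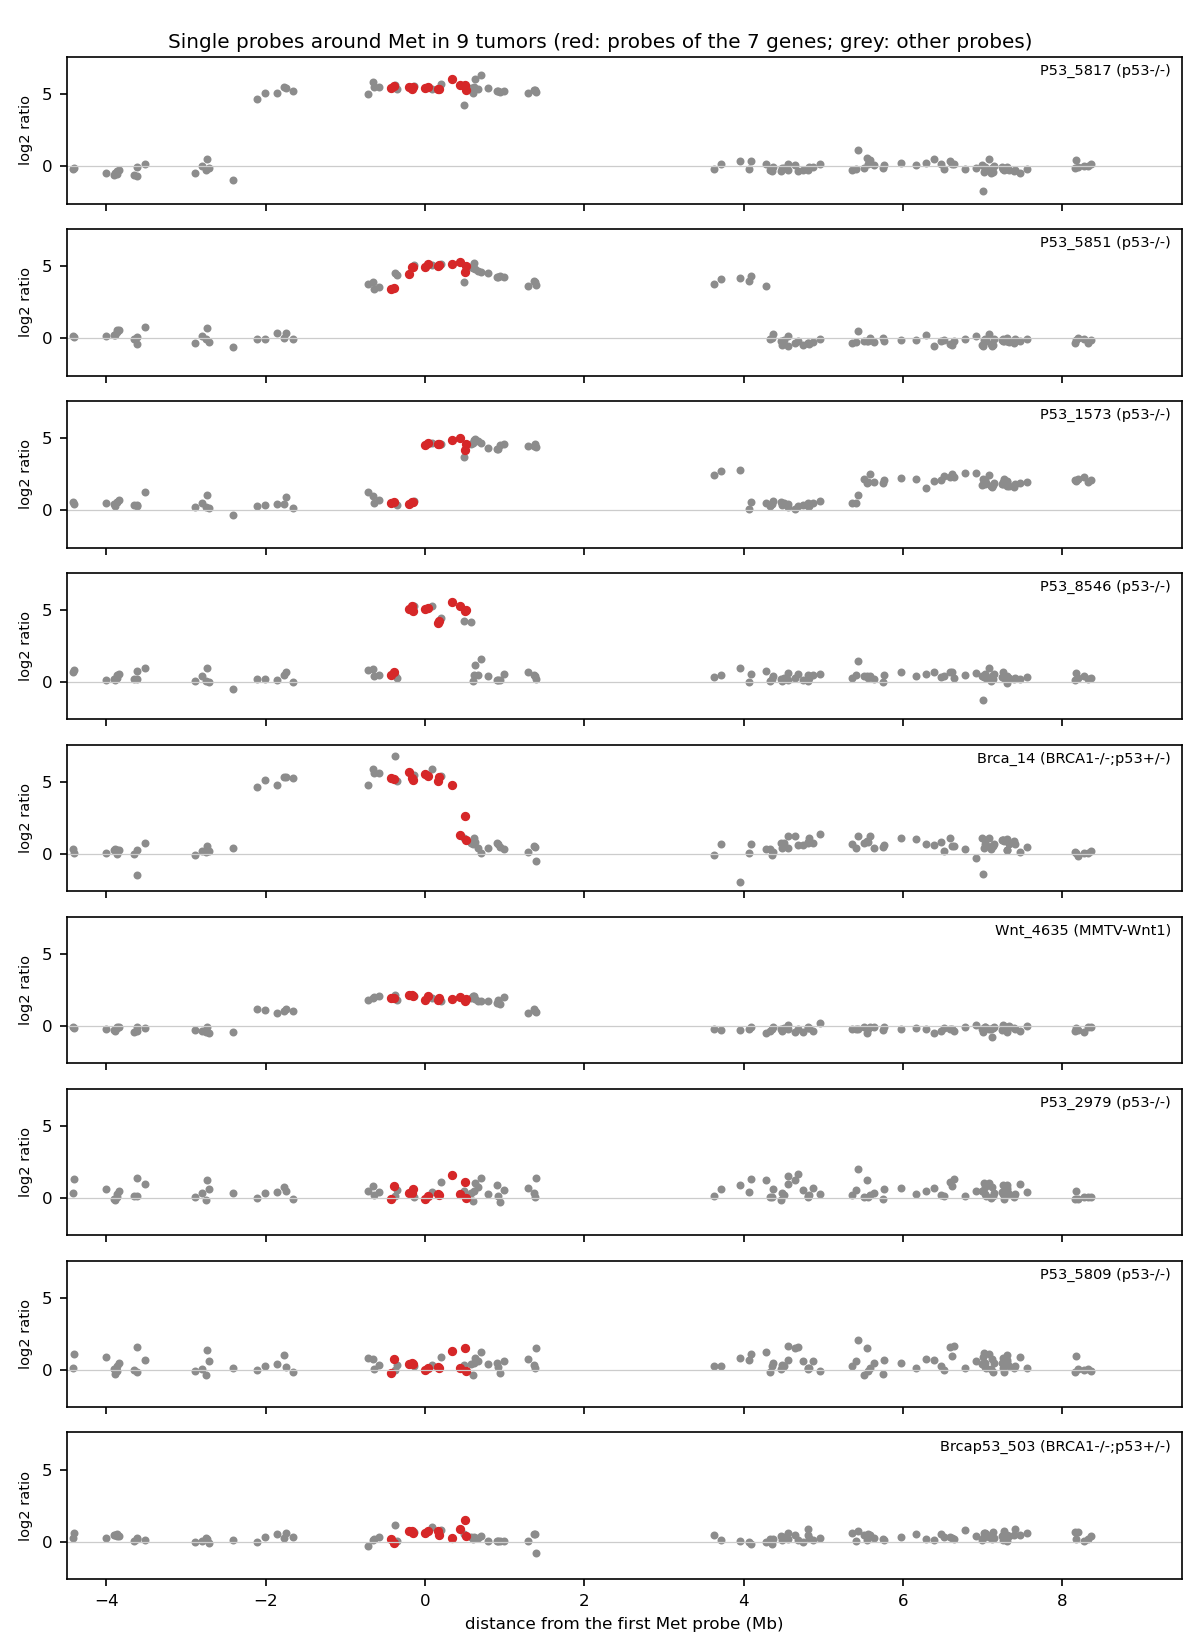
Log2 ratio of single probes (y axis) by distance from the first Met probe in Mb (x axis) in the 6 high-level tumors, the 2 other p53-/- tumors and Brcap53_503, with probes of the 7 genes in red and other probes in grey. The amplified run starts at Met in P53_1573, ends inside St7 in Brca_14, and is missing in P53_2979 and P53_5809.

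The stretch at high level in all 6 tumors was chr6:17442331-17778294, 336 kb and 7 probes, which hold Met, the transcripts AK145182 and AK045027, Capza2 and the first St7 probe. Without Brca_14 it extended to 18022093 (580 kb), through Wnt2 into Asz1, and this was also the stretch shared by the 4 p53-/- tumors. Among the 7 genes, Met and Capza2 were whole at high level in 6 of 6 tumors. St7, Wnt2, Cav1 and Cav2 were whole in 5 of 6 and Tes in 4 of 6. Wnt_4635 held all 15 genes of the window whole, so without it each of these counts is lower by 1 (5 of 5 for Met and Capza2, 4 of 5 for St7, Wnt2, Cav1 and Cav2 and 3 of 5 for Tes). The stretch gained in every p53-/- tumor, P53_2979 and P53_5809 included, was 2.10 Mb (chr6:16724617-18829387).

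**Figure D3:**
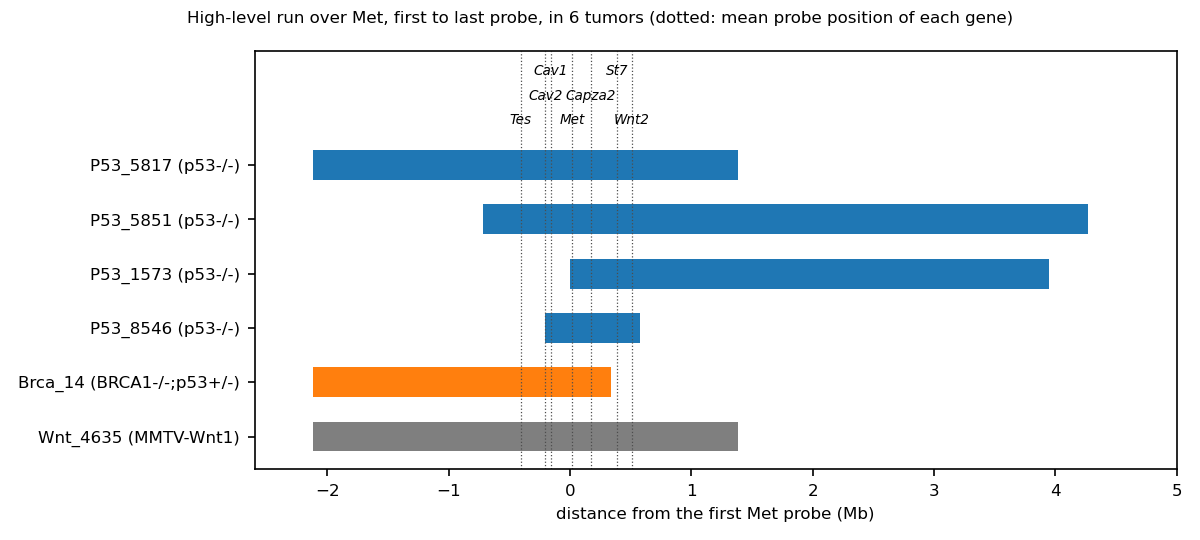
First to last probe of the unbroken run of high-level segments over Met in each of 6 tumors (bars; x axis, distance from the first Met probe in Mb), with the mean probe position of each of the 7 genes dotted. Met and Capza2 lie inside all 6 bars, while the P53_1573 bar leaves out Tes, Cav2 and Cav1, the P53_8546 bar leaves out Tes and the Brca_14 bar, which ends at the first St7 probe, stops short of the St7 and Wnt2 lines.

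The other 8 named genes of the window followed their position. AK145182 and AK045027, between Met and St7, were whole at high level in 6 of 6 tumors, with lowest values of 1.97 and 1.71. BC067060, next to Cav1, was whole in 5. Tcfec, a transcription factor gene of the MiT family, and B930018B01 were whole in 4, the tumors that also held Tes. On the other side Cftr, the chloride channel gene, and Cttnbp2, which encodes a cortactin-binding protein, were whole in 4, being outside the run of P53_8546 and Brca_14. Asz1, a germ cell gene, was whole in 4 and split by the border in P53_8546.

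In BRCA1-/-;p53+/- the question was whether the genes were gained relative to the other models without p53-/-. Brca_14 held Met at 5.50, Cav1 at 5.24, Cav2 at 5.68, Tes at 5.26, Capza2 at 5.20, St7 at 3.08 and Wnt2 at 1.79. Met in the other 4 tumors was 0.69 in Brcap53_503, 0.31 in Brca_42, 0.09 in Brcap53_682 and 0.04 in Brca_54, a range that overlapped that of the other models. Wnt2 was 0.94, 0.49, 0.72 and 0.75 in the same order. Brca_14 thus stood apart for Met and its 5 neighbours from Tes to St7, whereas its Wnt2 value was closer to those of the other 4 tumors. The region was nevertheless counted as gained in 4 of the 5 tumors, the same count as in MMTV-HRas. This is 80%, with an exact Clopper-Pearson interval of 28.4% to 99.5%. Besides Brca_14 these were Brcap53_503, Brca_42 and Brcap53_682, with segment means over Met of 0.72, 0.41 and 0.28. Brca_54, at 0.08, was not gained.

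In the fit of limma (moderated test, Benjamini-Hochberg over 19817 genes), 3 of 7 members were higher in BRCA1-/-;p53+/- than in the mean of the other 6 models, against 3.24% of all genes. These were Cav2 (difference 1.37, SE 0.40, adjusted p = 0.0309), Capza2 (1.22, SE 0.36, adjusted p = 0.0329) and Wnt2 (0.91, SE 0.19, adjusted p = 0.0020). Met differed by 1.18 (SE 0.40, adjusted p = 0.0693 by limma) and did not pass. Without Brca_14, Wnt2 alone passed (0.70, adjusted p = 0.0375 by limma), against 1.53% of all genes, and the Met difference was 0.14 (adjusted p = 0.80 by limma). With the slide as a random block Wnt2 alone passed as well (adjusted p = 0.017 by limma), against 1.34% of all genes. Without Wnt_4635, 5 members passed, Met and St7 being added, against 3.38% of all genes, and without C3TAg_7RPT, C3TAg_5RPT, H2N61 and H2N53 again Wnt2 alone (adjusted p = 0.0068 by limma, 2.6% of all genes). All 5 tumors of the model lay on slides that held no other model, so slide and model cannot be told apart. The block only allows for likeness of arrays on a slide, with no comparison of this model within a slide. The Wnt2 difference was carried by the probe at 17947748, with a mean of 1.5 ± 0.72 (SD, n = 5) in the model, against 0.38 ± 0.33 (SD, n = 5) for the probe at 17958615.

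Across the 7 models other than p53-/-, the limma F test called 1 of 7 members, Wnt2 (adjusted p = 0.00823), against 11.5% of all genes (4.63% without the 4 arrays of like profile, where Wnt2 was still called), and 2 of 7 had an unadjusted p under 0.05 (St7 and Wnt2), against 33.8% of all genes. Without Wnt_4635, Wnt2 passed (adjusted p = 0.000699 by limma) and St7 did not (adjusted p = 0.0511 by limma), against 12.6% of all genes. With the slide as a random block Wnt2 did not pass (adjusted p = 0.0531 by limma) and 2.14% of all genes did. Without probes that were dim on any array, which removed the Wnt2 probe at 17947748, no member was called. For the 6 models other than BRCA1-/-;p53+/- and p53-/-, 0 of 42 member contrasts passed by limma, with 2 at an unadjusted p under 0.05, against 14.4% of the same contrasts over all genes, and a lowest adjusted p of 0.228. The share of all genes called in either direction was 0.0% in C3(1)-Tag, 1.58% in MMTV-Her2/neu, 6.65% in MMTV-HRas, 0.525% in MMTV-PyMT, 0.57% in MMTV-Myc and 0.0706% in MMTV-Wnt1.

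In MMTV-Wnt1, Met was 1.92 in Wnt_4635 and between -0.13 and -0.05 in the other 4 tumors, and Cav1 was 2.14 against -0.08 to 0.20. The mean over the 7 genes was 0.46 ± 0.84 (SD, n = 5), and 0.0891 without Wnt_4635. Wnt_4679 was also counted as gained, through a segment with a mean of 0.21. The median of its 13 member probes was 0.01 and its Met value -0.13. The gains of MMTV-HRas were of another form. Met was 0.77 in Hras_An3_3, 0.53 in Hras_An1_3, 0.15 in Hras_An4_3, 0.14 in Haras_An5_3RPT and -0.05 in Hras_An2_3. St7 was the highest of the 7 genes in this model, with a mean of 0.83 ± 0.51 (SD, n = 5). In 4 of these 5 tumors the region was gained, in segments with means from 0.38 to 0.77.

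The 4 remaining models lay near 0. Met had a mean of 0.17 ± 0.31 (SD, n = 5) in C3(1)-Tag, 0.08 ± 0.20 (SD, n = 5) in MMTV-Her2/neu, 0.02 ± 0.04 (SD, n = 5) in MMTV-Myc and -0.01 ± 0.22 (SD, n = 9) in MMTV-PyMT. Without the 4 arrays of like profile it was 0.25 ± 0.41 (SD, n = 3) in C3(1)-Tag and 0.06 ± 0.28 (SD, n = 3) in MMTV-Her2/neu. Their highest Met values were 0.72 in C3TAg_8_RPT, 0.37 in H2N1 and 0.50 in PyMt435, each in a tumor counted as gained. MMTV-Myc had no gained tumor among 5 (upper bound 52.2%), and its Wnt2 mean was -0.28 ± 0.14 (SD, n = 5). The Wnt2 value came from the probe at 17947748, with a mean of -0.57 in MMTV-Myc, the probe at 17958615 having a mean of 0.0079.

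Of the models that shared slides, MMTV-PyMT, MMTV-Myc and MMTV-Her2/neu were also compared within them. C3(1)-Tag, on slides 1 and 2 with these models, and MMTV-Wnt1, on slide 18 with MMTV-PyMT, were not. The mean of the 7 genes in MMTV-PyMT minus that in MMTV-Myc lay between -0.16 and 0.41 on 5 slides, above 0 on 2. On 4 slides MMTV-Her2/neu minus MMTV-Myc lay between -0.04 and 0.30, above 0 on 3, and MMTV-Her2/neu minus MMTV-PyMT between 0.03 and 0.32, above 0 on all 4. For Met the mean differences were 0.02, 0.13 and 0.23 in the same order, above 0 on 2 of 5, 4 of 4 and 3 of 4 slides. On slide 3 the MMTV-Myc array was Myc_04004021, which ran against 2 MMTV-PyMT arrays as given above. The lowest differences from MMTV-Myc for the mean of the 7 genes, -0.16 and -0.04, came from this slide. They were not recomputed with the sign of that array turned. In 6 exact paired permutation tests (two-sided, signs of the differences flipped) p lay between 0.125 and 0.875, and the smallest p these designs allow is 0.0625 with 5 slides and 0.125 with 4. For MMTV-Her2/neu, slides 3 and 4 rest on H2N53 and H2N61, which are among the 4 arrays of like profile. Differences without them were not computed.

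To separate a focal gain from a gain of the whole chromosome, the median of chromosome 6 probes outside 10 to 25 Mb was subtracted from the median of the 13 member probes. This focal excess was 4.03, 5.57, 5.14 and 4.60 in P53_1573, P53_5817, P53_5851 and P53_8546, 5.29 in Brca_14 and 2.16 in Wnt_4635. It was -0.02 in P53_2979 and -0.07 in P53_5809, whose gains ran from 4033019 and 3274714 to 63295529 with means of 0.41 and 0.38. Among the 13 gained tumors that were not at high level, the focal excess lay between -0.20 and 0.52, and it reached 0.2 in 1 of them. That tumor was Brcap53_503, where the excess of 0.52 came from a segment at chr6:17062826-17947807 with 16 probes and a mean of 0.72. In Hras_An3_3 the members were at 0.87 and the rest of the chromosome at 0.78.

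The mean focal excess of BRCA1-/-;p53+/- was 1.18, against 0.10 over the other 6 models (difference 1.09, two-sided exact permutation test, p = 0.0198, adjusted over 7 tests p = 0.139). Without Brca_14 the difference was 0.06. The mean of MMTV-Wnt1 was 0.51 against 0.19 (exact permutation test, adjusted p = 0.554), and without Wnt_4635 the difference turned to -0.10. The differences of the other 5 models lay between -0.29 and -0.21, with adjusted p from 0.554 to 0.705 by the exact permutation test. In p53-/- the mean was 3.21 ± 2.57 (SD, n = 6), given as a description.

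**Figure D4:**
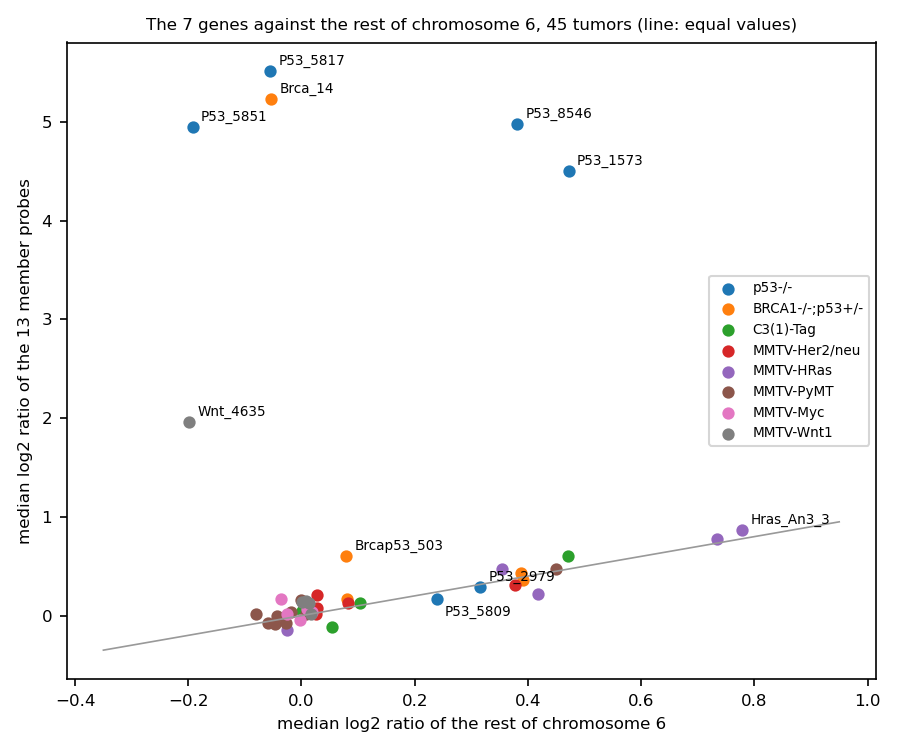
Median log2 ratio of the 13 member probes (y axis) against the median of the rest of chromosome 6 (x axis) in 45 tumors, coloured by model, with the line of equal values. The 6 high-level tumors stand above the line by 2.16 to 5.57, and P53_2979, P53_5809 and the MMTV-HRas tumors lie near it.

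Genes that act with the members were examined in 4 lists, comparing p53-/- with the mean of the other 7 models by limma over all genes. In this contrast 9.1% of all genes were higher and 7.56% lower, and the median difference over all genes was 0.0038. In the list of HGF and Met signalling, 0 of 28 genes were higher and 4 were lower, with a median of -0.03. In the caveola list, 0 of 8 measured genes were higher and 1 was lower, with a median of -0.11. In the list of actin capping, 0 of 7 were higher and 2 lower (median -0.26), and in canonical Wnt reception 1 of 11 was higher and 1 lower (median -0.11). The p53-/- arrays lay on 2 slides of their own, so slide and model cannot be told apart. A random block for the slide only allows for likeness of arrays on a slide, with no comparison of this model within a slide.

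The Met partner Cd44, a cell surface receptor that presents growth factor, was the lowest of these genes, with a difference of -1.55 (SE 0.19, adjusted p = 1.0e-07 by limma). Cd44 read -2.52 in P53_1573, -2.15 in P53_5817, -2.46 in P53_5851 and -1.93 in P53_8546, and -0.27 in both P53_2979 and P53_5809. These levels came from 1 of its 2 probes. The probe at chr2:102696093-102696152 lay between -4.80 and -3.70 in the 4 amplified tumors, at -0.36 and -0.57 in P53_2979 and P53_5809, and between -0.69 and 0.91 in the other 39. The probe at chr2:102672993-102673052 lay between -0.74 and -0.16 in the same 4 tumors.

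Other list genes moved less. Itga6, the integrin chain alpha 6, fell by 0.40 (SE 0.13, adjusted p = 0.0229 by limma). In the 4 amplified tumors this came from the Itga6 probe at 71623288, at -1.19 to -0.48, the probe at 71595424 reading -0.08 to 0.50, whereas both were below 0 in P53_2979 and P53_5809. The signalling adaptors Sos1 and Crk fell by 0.26 and 0.24 (adjusted p = 0.0248 and 0.0397 by limma). Ptrf, the caveola coat protein cavin 1, fell by 0.25 (adjusted p = 0.0326 by limma). Of the capping partners, Cd2ap fell by 0.29 (adjusted p = 0.0154 by limma), and Lrrc16a, listed on the array as Lrrc16, fell by 0.26 (adjusted p = 0.0383 by limma). Of the Wnt genes, the receptor gene Fzd5 was higher by 0.50 (SE 0.13, adjusted p = 0.0077 by limma) and the feedback gene Axin2 fell by 0.41 (adjusted p = 0.0205 by limma). Fzd5 rests on 1 probe, at chr1:64668778. Axin2 was lowest in P53_5809 (-0.88) and read 0.01 in P53_5817 and -0.06 in P53_5851. The ligand gene Hgf differed by 0.26 (SE 0.12, adjusted p = 0.131 by limma) and did not pass. Without the 4 arrays of like profile Crk (-0.224) and Ptrf (-0.239) no longer passed. With the slide as a random block, Fzd5, Cd44, Itga6, Cd2ap and Axin2 passed (adjusted p from 3.5e-06 to 0.0489 by limma). Without P53_2979 and P53_5809 the lower genes were Sos1, Cd44, Cd2ap and Axin1, and the higher ones were Ptk2 and Fzd5. The Lrrc16 difference was then -0.07. With P53_5809 alone left out, Sos1, Crk, Itga6, Ptrf, Cd2ap, Lrrc16 and Axin2 no longer passed, so of the lower genes named here only Cd44 kept its call.

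Likeness to the members over all genes was measured by the root mean square difference from the mean of the 7 members over 45 tumors. It was 0.31 for Capza2, 0.36 for Met, 0.40 for Cav1 and up to 0.72 for Tes, and it would be 1.55 for a gene at 0 in every tumor. Within the window AK045027 (0.46), AK145182 (0.50) and BC067060 (0.51) were nearest. Outside it the nearest were Mrgprb1 on chromosome 7 (0.89), E130311K13Rik on chromosome 3 (0.91) and 1110028C15Rik on chromosome 1 (0.92). The Mrgprb1 value came from 1 of 2 probes, which read 5.38, 6.40, 6.67 and 5.07 in P53_1573, P53_5817, P53_5851 and P53_8546, while the other stayed at or below 0.87 in these tumors. That probe, and 1 probe each of E130311K13Rik and 1110028C15Rik, were not well above background in both channels on 21, 21 and 45 arrays, whereas 12 of the 13 member probes were well above it on all 45.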

How the data were processed

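DNA of 45 tumors was hybridized against reference DNA on 44K CGH arrays, 1 array a tumor. Scanner output deposited by the authors (Agilent Feature Extraction, 9.5.1.1 per the file headers and 10.7 per the labels, mm8) gives each spot a processed intensity per dye, already background-subtracted and dye-normalized, and the log10 of Cy5 over Cy3. An interval table of log2 means, also deposited, served for the direction and as an alternative. Here, log10 ratios were turned to log2 of Cy3 over Cy5, outlier and control spots were left out, and arrays were centred on the autosomal median. Probes of a gene were averaged. Segments came from circular binary segmentation (Python 3.11.15, numpy 2.4.6, split statistic over 6, at least 5 probes). Genes were tested with limma 3.58.1 over 19817 genes and single values with exact permutation tests. The segmentation and a limma contrast were tried on simulated data, and the permutation tests were not. Tumors of a model were its replicates, by the labels. Median signal over background was 3.67 to 16.7 in Cy3 and 2.09 to 14.4 in Cy5, and the number of tumors limits precision. The members and lists were chosen with earlier results of these data known. The named genes were the 7 members, the named genes of the window, list genes past an adjusted p of 0.05, and the 3 genes of nearest pattern. Hgf and the genes called without P53_2979 and P53_5809 were named after their values were seen. The list gene Ehd2 had no value on every array. Alternatives covered background correction, loess, centring, dim probes, thresholds, slide as a random block, dyes as labelled and leaving out tumors.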

Additional observations from a re-analysis of the deposited data

Results flagged for a closer look

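In 56 combinations of a gene (or the focal excess) and a model of 5 to 9 tumors other than p53-/-, the highest or lowest tumor was set against the others by Dixon's test, and 22 stood apart, where chance gives about 1 in 20, or 2.8. In BRCA1-/-;p53+/- the tumor was Brca_14 for Tes (log2 ratio 5.26), Cav2 (5.68), Cav1 (5.24), Met (5.50), Capza2 (5.20), St7 (3.08) and the focal excess (5.29). In MMTV-Wnt1 it was Wnt_4635 for Tes (1.97), Cav2 (2.14), Cav1 (2.14), Met (1.92), Capza2 (1.87), St7 (1.94), Wnt2 (1.78) and the focal excess (2.16). Neighbouring genes on 1 segment share these values, so they are not separate events. In C3(1)-Tag it was C3TAg_8_RPT for Cav1 (0.76), Met (0.72) and Capza2 (0.63). Smaller values stood apart in H2N1 for Cav2 (0.25), in PyMt435 for Cav1 (0.44) and Met (0.50), and in Myc_04004021 for Cav1 (0.35). Causes were not tested.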

How the results depend on the processing

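Of 1074 recomputed values, 939 stayed the same by rules that differed with the kind of value. Tested differences had to keep their direction and their side of the threshold. Counts and shares had to stay within a fixed ratio of the main value. Means had to keep their sign and move by less than the SD of their model, and lengths had to be equal. This SD was 2.22 for the mean of the 7 members in p53-/-, a wide limit. With the dyes as labelled every sign turned. No tumor was then gained or at high level (0 in p53-/- and 0 in the other models), and the mean of the 7 members was -3.04 in p53-/-, -1.27 in BRCA1-/-;p53+/-, -0.11 in C3(1)-Tag, -0.46 in MMTV-HRas, -0.15 in MMTV-Her2/neu, -0.0311 in MMTV-Myc, -0.0518 in MMTV-PyMT and -0.46 in MMTV-Wnt1. Under the same setting Met was -3.37 in p53-/-, the mean focal excess of p53-/- was -3.21, and Met differed by -1.18 in BRCA1-/-;p53+/-, where 0 members were higher and 3 lower. The focal excess then differed by -1.09 in BRCA1-/-;p53+/-, 0.26 in C3(1)-Tag, 0.29 in MMTV-HRas, 0.22 in MMTV-Her2/neu, 0.21 in MMTV-Myc, 0.27 in MMTV-PyMT and -0.31 in MMTV-Wnt1. Of the list genes, 8 were then higher and 1 lower, with Axin2 at 0.41, Cd2ap at 0.29, Cd44 at 1.55, Crk at 0.24, Fzd5 at -0.50, Itga6 at 0.40, Lrrc16 at 0.26, Ptrf at 0.25 and Sos1 at 0.26.

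The stretch at high level in every high-level tumor, 0.336 Mb, was 0.716 Mb with high level at 0.5 and 0.580 Mb with a split statistic over 5 or without Brca_14, and 0.336 to 0.580 Mb when single tumors were left out (0.541 Mb without P53_1573). With high level at 0.5, 6 tumors of the other models were counted, against 1 with normexp background, without Brca_14 or without Wnt_4635 (1 to 2 over single tumors left out). The stretch gained in every p53-/- tumor was 3.50 Mb with gain at 0.1 or with normexp, 2.04 Mb without dim probes, and 2.10 to 4.99 Mb over single tumors (4.99 without P53_5817, 3.50 without P53_5851). In BRCA1-/-;p53+/- the members called higher numbered 1 with the slide as a block, without Brca_14 or without C3TAg_7RPT, C3TAg_5RPT, H2N61 and H2N53, 5 without Wnt_4635 or without Brca_54, and 1 to 5 over single tumors. The Met difference became called there without Brcap53_682 (1.49), Brca_54 (1.5) or Wnt_4635 (1.25). The focal difference of MMTV-Wnt1 was -0.076 with normexp and -0.10 to 0.44 over single tumors, -0.10 being without Wnt_4635. The mean of the members in C3(1)-Tag was -0.0059 to 0.168 over single tumors, lowest without C3TAg_8_RPT.

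The F test called 4.21% of genes with normexp, 2.14% with the slide as a block, 4.63% without the 4 arrays named above, and 6.87% to 17.8% over single tumors (6.87% without Hras_An1_3, 7.51% without H2N53, 17.8% without H2N64), against 11.5%. It called 0 members without dim probes or with the slide as a block. In the p53-/- contrast 5.51% of genes were higher and 4.30% lower with the slide as a block, and 3.93% and 4.69% without P53_2979 and P53_5809. Over single tumors 4.07% to 11.5% were higher and 3.44% to 9.09% lower, with 4.07% and 3.44% without P53_5809 and 5.11% higher without P53_2979. List genes called higher numbered 4 with normexp, 2 without dim probes or without P53_2979 and P53_5809, and 1 to 3 over single tumors. Those called lower numbered 5 with centring at the density peak, 4 with the slide as a block or without P53_2979 and P53_5809, and 1 to 10 over single tumors, with 1 without P53_5809. The lower calls of Crk, Ptrf and Lrrc16 were the least stable, each being lost with the slide as a block, with loess and with centring at the density peak, and Crk and Ptrf also without the 4 arrays. The cause was not tested. High level at 0.5 and leaving out Brca_14 or the 2 p53-/- arrays, and the values within slides, were chosen after seeing the data. By replicate number no paired analysis was possible because the labels give none that pair tumors. Paired differences by slide rest on 4 or 5 slides, too few for their exact tests to pass.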
